A study of Mus musculus with 38 samples.

Results

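The 10 genes described here are interferon-induced antiviral effector genes: Ifit1, Ifit2, Ifit3, Mx1, Mx2, Oas2, Oasl1, Oasl2, Rsad2 and Isg15. They were selected by symbol, and all 10 have a row among the 13260 genes of the deposited expression table. The table holds 38 RNA-Seq libraries of 100 sorted cells each from C57Bl/KaLwRij mice aged 8 to 10 weeks, which received either PBS vehicle (healthy) or 1000000 5TGM1-GFP cells by the intravenous route (myeloma-bearing) and were killed on day 23. 5TGM1 is a mouse myeloma line, here carrying green fluorescent protein, so all myeloma cells come from 1 line. Cells released from collagenase-digested hindlimb bone were sorted as endothelial cells (CD31+), stromal progenitors (Sca1+ALCAM-) and osteoprogenitors (ALCAM+Sca1-) after removal of CD45+ and Ter119+ cells. For healthy and for myeloma-bearing mice alike, endothelial cells and stromal progenitors gave 5 libraries each and osteoprogenitors gave 4. GFP+ myeloma cells were sorted from the bone lining (5 libraries) and the central marrow (5 libraries) of myeloma-bearing mice. Libraries are named by group and by the letter of their code. The labels do not say that a letter marks 1 mouse, so p-values measure the spread between these libraries, which may be partly technical.

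Type I interferons bind the receptor chains IFNAR1 and IFNAR2, and the kinases JAK1 and TYK2 then activate the transcription factor ISGF3, which holds STAT2 and IRF9. ISGF3 binds the interferon-stimulated response element, a pair of GAAA half-sites, in the promoters of antiviral genes. IFIT proteins bind viral RNA that lacks the host cap methylation and block its translation. MX proteins are dynamin-like GTPases, with Mx1 in the nucleus and Mx2 in the cytoplasm of mouse cells that make them. Whether the mice used here make functional MX proteins was not examined. OAS enzymes sense double-stranded RNA and make oligoadenylates that activate RNase L, whereas OASL proteins are related to them in sequence. Rsad2 encodes viperin, a radical SAM enzyme, and Isg15 encodes a ubiquitin-like protein that is conjugated to other proteins.

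On GRCm38 (GENCODE M21) Ifit2 (chr19:34550694-34576419), Ifit3 (chr19:34583531-34588731) and Ifit1 (chr19:34640871-34650009) lie in 1 cluster on the + strand. Oasl2 (chr5:114896936-114912234, +) neighbours Oasl1 (chr5:114923240-114937915, +), and Oas2 (chr5:120730333-120749853, -) lies further along the same chromosome. Mx1 (chr16:97447035-97462907, -) is followed by Mx2 (chr16:97535308-97560900, +), which that annotation lists as a polymorphic pseudogene. Rsad2 lies at chr12:26442746-26456452 (-) and Isg15 at chr4:156199424-156200818 (-). Of windows of 50 bases along a transcript of Ifit3, 51.2% also occur in Ifit3b, so the level of Ifit3 is uncertain, as reads that match both near-identical copies were left out of the counts. The shares were 7.13% for Ifit1, 6.55% for Mx2, 4.77% for Mx1, 3.96% for Isg15 and 0% for the other members. Oasl1 overlaps the antisense gene Gm13822 and Oas2 overlaps Gm43068, and because reads were counted at default settings, which ignore strand, those on shared bases cannot be assigned to either gene.

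Promoter sequences from RefSeq (GRCm38.p6, 250 bases before to 50 after the annotated start) were matched by symbol for 7 of the 10 genes, and no entry was matched for Mx1, Mx2 or Oas2. Both GAAA half-sites of the response element were searched as GAAANNGAAA and its reverse complement TTTCNNTTTC, where N is any base. Matches were present for Isg15, Ifit1, Ifit3 and Rsad2, and these letters were not in the windows of Ifit2, Oasl1 and Oasl2. Of all 32851 promoter windows of this length 3.44% held a match. Counted from the annotated start, Isg15 had 3 overlapping matches on the gene's own strand, from positions -78, -72 and -66. Ifit1 had 2 (from -104 and -85), Ifit3 had 2 (from -156 and -122) and Rsad2 had 1 (from -120), all in the reverse orientation. The 80 bases around these matches are shown because the genes share them while their levels differ. Each is written on the gene's strand, with the matched letters in capitals, and lies before the transcript, at chr4:156200846-156200925 (-) for Isg15, chr19:34640759-34640838 (+) for Ifit1, chr19:34583355-34583434 (+) for Ifit3 and chr12:26456528-26456607 (-) for Rsad2. A match is a description of the letters, not a binding site.
Isg15: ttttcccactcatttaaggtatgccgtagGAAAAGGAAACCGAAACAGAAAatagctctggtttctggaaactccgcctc
Ifit1: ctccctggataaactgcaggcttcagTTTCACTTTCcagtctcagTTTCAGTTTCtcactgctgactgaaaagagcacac
Ifit3: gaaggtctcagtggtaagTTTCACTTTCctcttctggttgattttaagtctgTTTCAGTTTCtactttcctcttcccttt
Rsad2: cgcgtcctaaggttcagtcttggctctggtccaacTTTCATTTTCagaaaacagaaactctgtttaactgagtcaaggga

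The deposited values are RPKM, read counts scaled for gene length and library size, so that levels of different genes can be compared. The reads behind every value could be recovered, and library totals ran from 9735031 to 34883291. Marker genes of the sorted cells were summed in each library. The summed level of 4 endothelial markers (Cdh5, Pecam1, Tek, Selp) was 527 to 1338 RPKM in endothelial cells and at most 9.20 in the progenitors. Osteoprogenitor markers (Alcam, Sp7, Dkk1, Bmp7, Cdh2) summed to 27.4 to 105 RPKM in osteoprogenitors and to at most 1.88 in the other niche cells. The 5 stromal progenitor markers (Prrx1, Pdgfra, Pdgfrb, Ly6a, Lepr) did not set stromal progenitors apart, since they summed to 958 to 3036 RPKM there and to 2253 to 8771 RPKM, nearly all Ly6a, in endothelial cells. Myeloma markers summed to 3200 to 9882 RPKM in myeloma cells and to at most 34.1 in niche cells. Siglech, of plasmacytoid dendritic cells, was at most 0.026 RPKM in niche libraries. In myeloma cells it was 0.102 to 8.99 RPKM in bone-lining and 0.409 to 15.9 RPKM in central marrow libraries. Of the other 3 genes of that list none was analysed here.

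The plot of all 10 genes by library shows that endothelial cells of myeloma-bearing mice had the highest mean level of each gene among the 8 groups. In these libraries 7 to 10 of the 10 genes were above 1 RPKM (median 9), whereas healthy endothelial libraries had 3 to 6 (median 4). The 2 ranges did not overlap. The summed level of the 10 genes was 461 to 899 RPKM in myeloma-bearing and 71.3 to 206 RPKM in healthy mice, again without overlap. All 10 genes had at least 1 read in every endothelial library of myeloma-bearing mice, whereas 5 to 8 had a read in those of healthy mice. The summed level of 7 analysed macrophage genes was 79.9 to 304 RPKM in these libraries and 32.7 to 181 RPKM in healthy ones. Of these, Cd68 averaged 37.9 against 6.69 RPKM and Lyz2 14.03 against 0.022 RPKM, Mrc1 53.8 against 103 and Cd14 28.0 against 25.6, and Emr1, Csf1r and C1qb at most 0.024 RPKM in either group. Of the 3 that passed the filter (Cd68, Cd14 and Mrc1) 0 were called, and the part of these genes in the result was not tested. Myeloma markers summed to 1.55 to 20.2 RPKM in these libraries and to 0.019 to 6.69 RPKM in healthy ones. Of them Sdc1 averaged 5.95 against 0.012 RPKM and was called by voom-limma on all 38 libraries (adjusted p = 0.0121), and its part in the result was not tested. More expressing cells and more RNA per cell cannot be told apart in these pooled cells.

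**Figure D1:**
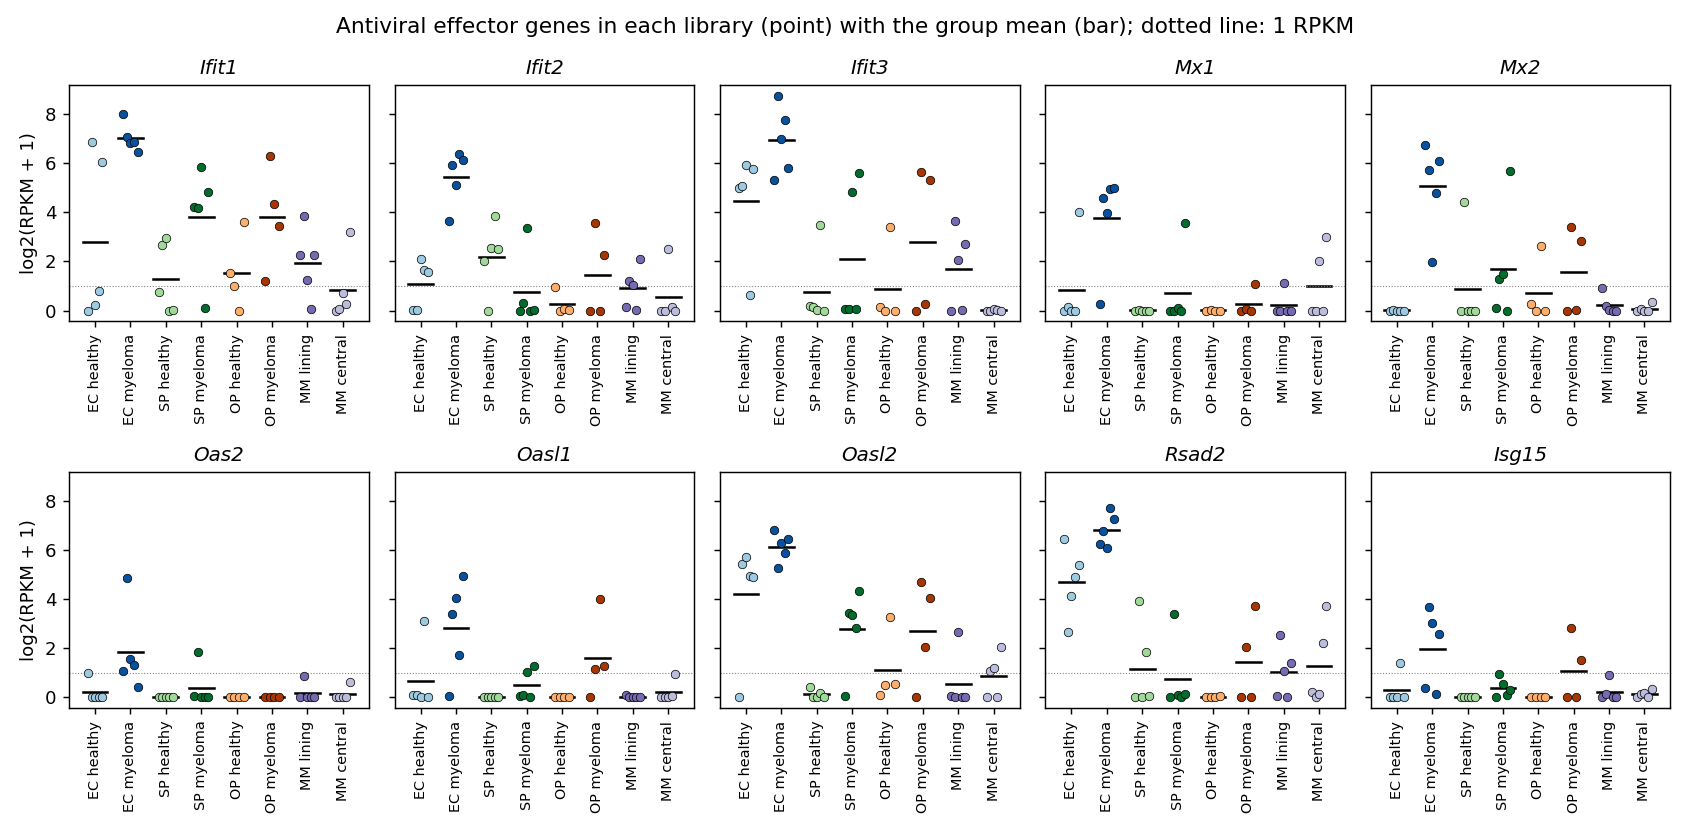
Level of each gene as log2(RPKM + 1) on the y axis in the 8 groups on the x axis (EC, endothelial cells; SP, stromal progenitors; OP, osteoprogenitors; MM, myeloma cells). Points are libraries, bars are group means and the dotted line is 1 RPKM. For Ifit2 and Mx2 all 5 endothelial libraries of myeloma-bearing mice lie above all 5 of healthy mice.

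Of the IFIT genes, Ifit2 separated the endothelial groups and Ifit1 and Ifit3 did not. Ifit2 levels in healthy libraries C, L, M, N and O were 0.029, 0.029, 3.32, 2.12 and 1.97 RPKM, and in myeloma-bearing libraries D, E, G, I and J they were 11.6, 59.6, 33.6, 81.4 and 70.3 RPKM. The 2 groups did not overlap, and the means were 51.3 ± 28.4 against 1.49 ± 1.44 RPKM (SD, n = 5 each). Over all genes tested, 0.571% had a range in myeloma-bearing mice wholly above that in healthy mice, and of the 10 members 2 did, Ifit2 and Mx2. Mx2 was among the genes tested only through its levels in myeloma-bearing mice. Ifit1 was 0, 116, 0.162, 0.749 and 66.1 RPKM in the healthy libraries and 257, 134, 113, 117 and 87.6 RPKM in the myeloma-bearing ones. Healthy library L thus lay within the myeloma-bearing range, library O lay just below it, and the other 3 were below 1 RPKM. Ifit3 was 30.7, 33.1, 60.3, 0.542 and 53.6 RPKM in healthy and 38.9, 433, 127, 218 and 55.5 RPKM in myeloma-bearing mice, with overlap.

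Mx2 was listed at 0 in healthy endothelial libraries C, M, N and O and at 0.023 RPKM, a single read, in library L. In myeloma-bearing libraries D, E, G, I and J it was 107, 51.8, 2.91, 26.9 and 67.2 RPKM, or 115 to 5623 reads. With 13738 reads against 1 over the groups, the ratio of pooled levels was 14136, with a 95% Poisson interval of 2537 to 558333 that covers counting error only. Mx1 was at 0 in healthy libraries C, M and N, at 0.115 in L and at 15.2 RPKM in O. In myeloma-bearing mice Mx1 was 0.216, 23.1, 14.6, 30.2 and 31.2 RPKM. Library D, the highest for Mx2, was thus the lowest for Mx1, and healthy library O was the only one of its group with more than 6 Mx1 reads.

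Of the OAS family, Oasl2 had the highest level. It was 0.018, 42.3, 52.2, 29.9 and 28.5 RPKM in endothelial cells of healthy mice and 111, 37.6, 78.1, 58.6 and 86.6 RPKM in those of myeloma-bearing mice. All but 1 healthy library already carried it, and 4 of the 5 myeloma-bearing libraries exceeded all healthy ones. Oasl1 was below 0.1 RPKM in 4 healthy libraries and 7.71 RPKM in library N, against 0.025, 9.68, 15.3, 2.35 and 30.1 RPKM in myeloma-bearing mice. Oas2 was 1.00 RPKM in healthy library C and listed at 0 in the other 4, against 1.08, 28.5, 1.94, 1.52 and 0.322 RPKM in myeloma-bearing mice. Its mean of 6.67 RPKM in that group rests on library E.

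Rsad2 was present in every endothelial library, at 85.8, 5.35, 16.5, 28.7 and 40.5 RPKM in healthy mice and 75.4, 110, 67.6, 212 and 151 RPKM in myeloma-bearing mice. Healthy library C overlapped the myeloma-bearing group and the other 4 lay below it. The 4 analysed neutrophil genes summed to 162 RPKM in library C and to at most 1.98 RPKM in the other healthy libraries. Of them S100a8 alone was above 1 RPKM, and their part in the level of Rsad2 was not tested. Isg15 was at 0 in 4 healthy libraries and 1.62 RPKM in N, against 0.283, 11.9, 7.07, 0.099 and 4.91 RPKM in myeloma-bearing mice. Isg15 had at most 162 reads in any endothelial library, the fewest of the 10 genes at their own maximum.

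These differences were tested with limma on log2(RPKM + 1) of the 10 endothelial libraries, restricted to genes that exceeded 1 RPKM in 4 or more libraries. A gene was called where the Benjamini-Hochberg adjusted p was under 0.1 and the log2 fold change was over 1 in size. Of 7880 genes tested 0% were called (414 had an unadjusted p below 0.05), and of the 10 members 0 were called (6 had an unadjusted p below 0.05). Mx2, Mx1, Oas2 and Oasl1 were above 1 RPKM in 4 or 5 myeloma-bearing and 0 or 1 healthy libraries, so they passed the filter through the group where they were high and had to differ. The median log2 fold change of the members was 2.31, beside 0.07 over all genes tested. The largest was that of Mx2, at 5.06 (SE 1.13, limma adjusted p = 0.479), followed by Ifit2 at 4.36 (SE 1.05, limma adjusted p = 0.573) and Ifit1 at 4.26 (SE 1.24, limma adjusted p = 0.821). The other 7 lay between 1.65 (Oas2) and 2.93 (Mx1), with limma adjusted p from 0.872 to 0.925. A fold change on this scale understates the change of genes near 0. In an exact two-sided permutation test of each single gene, Ifit2 and Mx2 reached 0.00794, which is the smallest p that 5 against 5 libraries allow. The exact p was 0.0159 for Oas2, 0.0238 for Ifit1, Mx1 and Rsad2, 0.0317 for Oasl2, 0.0397 for Ifit3, 0.0556 for Isg15 and 0.0714 for Oasl1, without adjustment over genes.

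The call depended on the fit. When all 38 libraries shared 1 estimate of the spread, 7 members were called (Mx2, Ifit2, Mx1, Ifit1, Oas2, Oasl1 and Isg15), beside 3.27% of all genes tested. The limit just given for Mx2, Mx1, Oas2 and Oasl1 holds for this count too, so it describes the levels. Voom-limma on the recovered reads of all 38 libraries called 5 (Mx2, Oas2, Mx1, Ifit2 and Ifit1), beside 1.89% of all genes. In these fits the adjusted p was 0.00204 and 1.3e-05 for Mx2 and 0.00162 and 0.0792 for Ifit2, by limma and voom-limma respectively. With each of the 10 endothelial libraries left out in turn, the call of Mx2 was kept in 10 of 10 fits by both methods, and that of Ifit2 in 10 by limma and 7 by voom-limma. By limma, Mx1 was called in 10, Ifit1 in 9, Oas2 in 8 and Oasl1 in 4 of 10 fits and Isg15 in 4 of the 6 where it passed the filter. By voom-limma, Oas2 was called in 10 and Mx1 and Ifit1 in 6 of 10 fits. Oasl2, Rsad2 and Ifit3 were called in neither fit of all libraries.

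**Figure D2:**
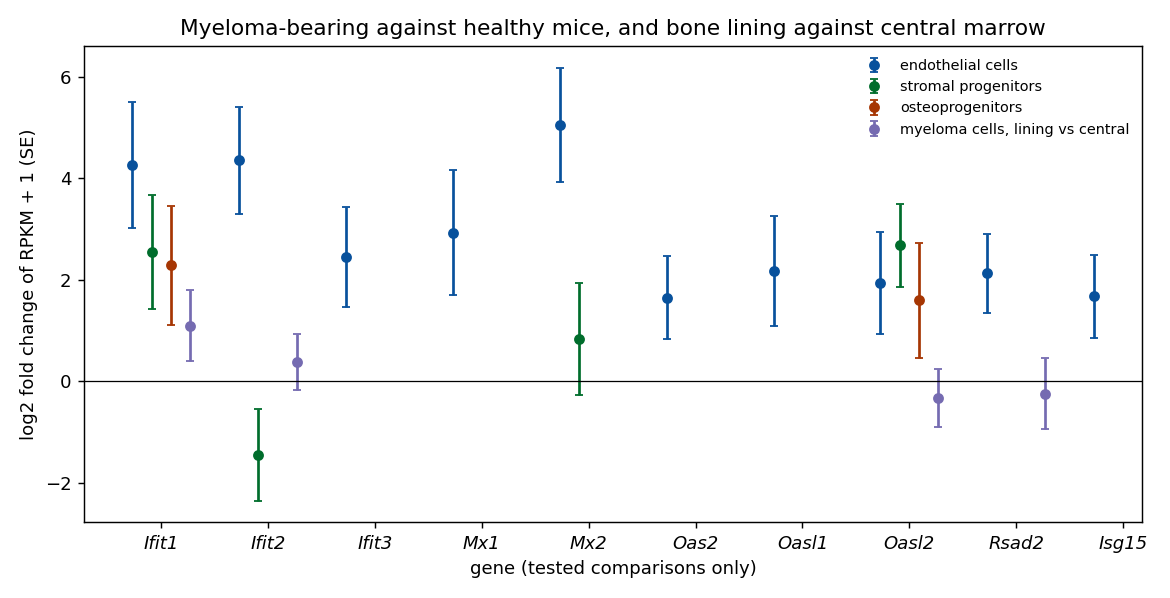
Log2 fold change of RPKM + 1 on the y axis, with SE, for each gene on the x axis, in endothelial cells, stromal progenitors and osteoprogenitors (myeloma-bearing against healthy mice) and in myeloma cells (bone lining against central marrow). Only tested genes are drawn, and Mx2 in endothelial cells is highest at 5.06 with none called in these 4 comparisons.

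In stromal progenitors fewer of the genes were above 1 RPKM. Healthy libraries had 1 to 3 of the 10 above 1 RPKM and myeloma-bearing libraries had 1 to 6, with libraries E, G and J at 5 or 6 and libraries D and I at 1. Oasl2 was 0.340, 0.019, 0, 0.117 and 0 RPKM in healthy libraries C, L, M, N and O and 0.023, 9.78, 9.23, 6.16 and 19.2 RPKM in myeloma-bearing libraries D, E, G, I and J. All myeloma-bearing libraries except D thus exceeded all healthy ones, and the means were 8.88 ± 6.96 against 0.095 ± 0.145 RPKM (SD, n = 5 each). Ifit1 was 0.711, 5.42, 6.74, 0 and 0.017 RPKM in healthy and 17.6, 17.1, 56.3, 0.061 and 27.4 RPKM in myeloma-bearing mice. Here library I was the exception and the other 4 exceeded all healthy libraries.

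Ifit2 had the opposite sign in stromal progenitors, at 3.10, 0, 4.86, 13.6 and 4.77 RPKM in healthy and 0, 0.244, 9.31, 0 and 0.029 RPKM in myeloma-bearing mice. Ifit3 and Mx2 were each carried by a few libraries. Ifit3 was at most 10.2 RPKM in healthy mice, in library N, and reached 27.4 in library G and 47.6 in library J of myeloma-bearing mice, with the other 7 libraries of both conditions below 0.13 RPKM. Mx2 was 20.2 RPKM in healthy library L and 0 in the other 4, against 0.060, 1.45, 1.80, 0 and 51.2 RPKM in myeloma-bearing mice. Rsad2 reached 14.1 RPKM in healthy library L and 9.47 RPKM in myeloma-bearing library E. These 2 libraries also held the most RNA of neutrophil genes: the 4 analysed of 7 (S100a8, S100a9, Ngp and Camp) summed to 7233 and 8061 RPKM there, against at most 180 and 94.8 RPKM in the other healthy and myeloma-bearing libraries. The part of those cells in the levels of Mx2 and Rsad2, and of Oas2 and Isg15 in library E, was not tested.

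Mx1, Oas2, Oasl1 and Isg15 were near 0 in stromal progenitors of healthy mice. Mx1 had a single read over the healthy group, in library L, and 565 reads in myeloma-bearing library J (10.7 RPKM). Oas2 had no read in healthy mice and 260 reads in library E, so that it was at least 90.4-fold higher over the group against a floor of 3 reads, a bound that rests on library E, since 2 reads remain without it. Isg15 had no read in healthy mice and 0, 18, 6, 1 and 3 reads in myeloma-bearing mice, at least 9.67-fold higher over the group, a bound that rests mainly on library E. Oasl1 had 1 read in healthy mice and 1, 3, 37, 0 and 54 reads in myeloma-bearing mice.

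Only Ifit1, Ifit2, Mx2 and Oasl2 passed the filter on low values in stromal progenitors, Oasl2 through the myeloma-bearing libraries alone (4 against 0 above 1 RPKM). Of 8747 genes tested by limma 0% were called (437 had an unadjusted p below 0.05), and of these 4 members 0 were called, also in both fits of all 38 libraries. The log2 fold change was 2.68 for Oasl2 (SE 0.83, limma adjusted p = 0.811), 2.54 for Ifit1 (SE 1.12, limma adjusted p = 0.956), 0.83 for Mx2 (SE 1.11, limma adjusted p = 0.994) and -1.45 for Ifit2 (SE 0.90, limma adjusted p = 0.956). The exact permutation p was 0.0238 for Oasl2, 0.0476 for Oasl1 and Isg15, 0.0556 for Ifit1 and from 0.167 to 0.690 for the other 6. No member had non-overlapping ranges, beside 0.354% of all genes tested that lay wholly higher in myeloma-bearing mice.

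Osteoprogenitors showed a split among the 4 libraries of myeloma-bearing mice. Libraries G and J had 8 and 9 of the 10 genes above 1 RPKM, whereas library I had 3 and library D had 1. Healthy libraries L, M, N and O had 1, 0, 3 and 1. Ifit3 was 0.118, 0, 9.46 and 0 RPKM in healthy libraries L, M, N and O and 0, 49.2, 0.189 and 39.1 RPKM in myeloma-bearing libraries D, G, I and J. Oasl2 was 0.075, 0.404, 8.74 and 0.468 RPKM in healthy and 0, 25.3, 3.17 and 15.5 RPKM in myeloma-bearing mice. The groups thus overlapped for both genes, with healthy library N high and myeloma-bearing library D at 0.

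Ifit1 was 1.93, 0.990, 0 and 11.1 RPKM in healthy osteoprogenitors and 1.31, 78.1, 19.1 and 9.95 RPKM in those of myeloma-bearing mice. Oasl1 had no read in healthy osteoprogenitors and was 0, 1.23, 15.2 and 1.42 RPKM in myeloma-bearing mice, at least 211-fold higher over the group, a bound that rests on library I, with 514 of the 599 reads. Library I, low for most of the genes, was thus the highest for Oasl1. Isg15 had no read in healthy osteoprogenitors and 84 and 17 reads in libraries G and J, at least 35.6-fold higher over the group, a bound that rests mainly on library G. Rsad2 was 3.12 and 12.3 RPKM in G and J, and at most 0.029 RPKM in the other 6 libraries. Ifit2 and Mx2 were above 1 RPKM in G and J too (10.96 and 3.84 RPKM, and 9.51 and 6.06 RPKM), but Mx2 was also 5.15 RPKM in healthy library N. Mx1 reached 1.10 RPKM in J, and Oas2 had no read in any osteoprogenitor library.

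Ifit1 and Oasl2 alone passed the filter in osteoprogenitors. Of 8664 genes tested by limma 0.0115% were called, and of these 2 members 0 were called. The log2 fold change was 2.29 for Ifit1 (SE 1.17, limma adjusted p = 0.981) and 1.60 for Oasl2 (SE 1.13, limma adjusted p = 0.981), and 0 members were called in the fits of all 38 libraries. The exact permutation p was from 0.143 to 1 for the 10 genes, and 4 against 4 libraries cannot go below 0.0286. No member had non-overlapping ranges, beside 1.34% of all genes tested that lay wholly higher in myeloma-bearing mice. The summed level of 7 analysed macrophage genes was 225 RPKM in library G, the highest of the 8 osteoprogenitor libraries, and 107 RPKM in J, beside 125 in D and 3.55 in I, against 40.2 to 115 RPKM in healthy libraries, and its part in the antiviral genes was not tested. Of these genes Lyz2 averaged 44.8 RPKM in myeloma-bearing mice and was at 0 in healthy ones, Cd68 averaged 42.3 against 21.5 and Cd14 27.8 against 64.5 RPKM. Emr1 and C1qb were at 0 in all 8 libraries, and Csf1r and Mrc1 averaged at most 0.109 RPKM in either group.

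**Figure D3:**
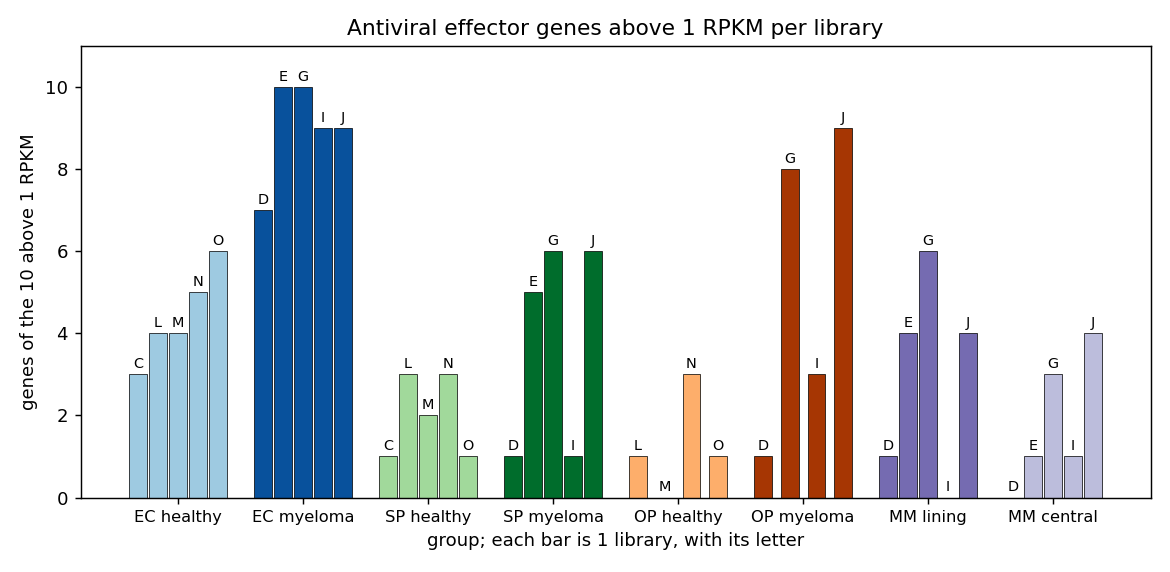
Number of the 10 genes above 1 RPKM on the y axis in each library, with its letter, by group on the x axis (EC, endothelial cells; SP, stromal progenitors; OP, osteoprogenitors; MM, myeloma cells). Endothelial libraries of myeloma-bearing mice stand at 7 to 10, and libraries G and J stand at 6 or more in both progenitor groups of myeloma-bearing mice.

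In the progenitors and myeloma cells of myeloma-bearing mice, libraries with the letters G and J carried more of the genes than those with D and I. In stromal progenitors the numbers above 1 RPKM were 6 and 6 for G and J against 1 and 1 for D and I. In osteoprogenitors they were 8 and 9 against 1 and 3, and in bone-lining myeloma cells 6 and 4 against 1 and 0. In central marrow they were 3 and 4 against 0 and 1, whereas in endothelial cells J equalled I (10 and 9 against 7 and 9) and the summed level had the opposite order (461 and 585 RPKM for G and J against 603 and 748 RPKM for D and I). Library E, absent from the osteoprogenitors, had 10 in endothelial cells, 5 in stromal progenitors, 4 in the bone lining and 1 in the central marrow. This is a description over libraries whose letters were compared after their values were seen, and it was not tested.

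Myeloma cells had low levels of the genes at both sites. The number above 1 RPKM was 0 to 6 (median 4) in the bone lining and 0 to 4 (median 1) in the central marrow, and the ranges of the summed level, 0.095 to 32.5 RPKM and 0.160 to 32.6 RPKM, overlapped. Ifit1 was 3.77, 13.5, 1.39, 0.045 and 3.86 RPKM in bone-lining libraries D, E, G, I and J and 0, 0.042, 0.622, 0.210 and 8.18 RPKM in the central marrow. Ifit3 was 0, 11.7, 3.11, 0.020 and 5.62 RPKM in the bone lining, whereas the 5 central libraries held 3 reads in all. For Ifit3 the ratio of pooled levels was 228, with a 95% Poisson interval of 78.2 to 1108, and the exact permutation p was 0.119. This ratio rests on few libraries, since bone-lining library E held 330 of 622 reads and central library G held 2 of the 3 central reads. Mx1 had the opposite order, with 79 reads in 1 bone-lining library and 191 and 449 reads in central libraries G and J. The summed level of 7 analysed macrophage genes was 170 to 903 RPKM in bone-lining and 410 to 634 RPKM in central libraries. The part of these genes in the levels was not tested.

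Ifit1, Ifit2, Oasl2 and Rsad2 passed the filter in myeloma cells. Of 8857 genes tested by limma 0.203% were called, and of these 4 members 0 were called. The log2 fold changes of the bone lining against the central marrow were 1.10 for Ifit1, 0.37 for Ifit2, -0.32 for Oasl2 and -0.25 for Rsad2, with SE from 0.55 to 0.70 and limma adjusted p from 0.921 to 0.987. No exact permutation p of the 10 genes was below 0.119.

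In healthy mice the endothelial cells already carried part of the set. Compared with healthy stromal progenitors, limma called Oasl2 (log2 difference 4.08, SE 1.05, adjusted p = 0.0173), Ifit3 (3.71, SE 1.14, adjusted p = 0.0445) and Rsad2 (3.53, SE 1.03, adjusted p = 0.0345) higher in endothelial cells, or 3 of the 5 members tested, beside 17.3% of all genes. Of these, Ifit3 lost its call without the filter, with the replicate block, and without stromal library C, M or O (differences then from 3.52 to 3.56), and Oasl2 no longer passed the filter without endothelial library L, M, N or O. Compared with healthy osteoprogenitors, limma called Rsad2 (4.68, SE 0.92, adjusted p = 0.00437) and Ifit3 (3.60, SE 1.25, adjusted p = 0.0842), 2 of 4 tested, beside 16.5% of all genes. The call of Ifit3 was the weaker, since it was lost when any of 7 of the 9 libraries was left out, with the difference then from 3.23 to 3.47. Between healthy stromal progenitors and osteoprogenitors 0 of 2 tested members were called (1 had an unadjusted p below 0.05), beside 3.58% of all genes. A member that passes the filter only through the endothelial libraries had to differ, so these counts describe the levels.

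The niche cells of myeloma-bearing mice were also compared with the bone-lining myeloma cells. In endothelial cells 9 of 9 tested members were called higher by limma, beside 41.5% of all genes in either direction, with log2 differences from 1.67 (Oas2, SE 0.72, adjusted p = 0.0896) to 5.81 (Rsad2, SE 0.62, adjusted p = 1.2e-05). Oas2 lost its call without the trend, without the filter, and without bone-lining library D, G, I or J. In stromal progenitors 1 of 5 was called, beside 42.4% of all genes, and it was Oasl2 (2.25, SE 0.81, adjusted p = 0.0441). In osteoprogenitors 1 of 5 was called, beside 42.9% of all genes, again Oasl2 (2.16, SE 0.93, adjusted p = 0.0886). Voom-limma on all 38 libraries did not call Oasl2 there (adjusted p = 0.125) and called Oasl1 instead (5.56, adjusted p = 0.0255). With each of the 9 osteoprogenitor and bone-lining libraries left out in turn, the limma call of Oasl2 was kept only without osteoprogenitor library D. It was lost in 4 fits, and in the other 4 Oasl2 no longer passed the filter. These 3 comparisons share the bone-lining myeloma libraries. Mx2, Oas2 and Oasl1 were above 1 RPKM in 0 bone-lining libraries and Mx1 and Oasl2 in 1, so in endothelial cells these 5 passed the filter through the endothelial libraries and had to differ. Oasl2, above 1 RPKM in 4 stromal progenitor and 1 bone-lining libraries, had to differ there too. These counts describe the levels.

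Over the 8 groups, the order of mean levels began with endothelial cells of myeloma-bearing mice for all 10 genes. Healthy endothelial cells came next for Ifit1, Ifit3, Mx1, Oasl2 and Rsad2, stromal progenitors of myeloma-bearing mice for Mx2 and Oas2, osteoprogenitors of myeloma-bearing mice for Oasl1 and Isg15, and healthy stromal progenitors for Ifit2. The means in the 2 leading groups were 142 ± 66.6 and 36.7 ± 52.9 RPKM for Ifit1, 174 ± 161 and 35.7 ± 23.4 for Ifit3, 123 ± 59.5 and 35.4 ± 31.1 for Rsad2 and 74.3 ± 27.8 and 30.6 ± 19.6 for Oasl2 (SD, n = 5 each). Of 70 pairs of neighbours in these orders, 8 had an exact permutation p below 0.05 without adjustment and 0 had ranges that did not overlap. The pairs were set by ranking the same values, and no share over all genes is given, so these counts describe the levels. In 7 of these 8 pairs the first 2 groups differed, for Ifit2 (0.0159), Ifit1, Mx1 and Rsad2 (0.0238), Oasl2 (0.0317) and Ifit3 and Mx2 (0.0397). The eighth was healthy endothelial cells against osteoprogenitors of myeloma-bearing mice for Rsad2 (0.0317). The remaining 62 pairs were not told apart by this test.

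Whether the change with myeloma differed between cell types was tested as an interaction in limma. For endothelial cells against stromal progenitors 0% of 10596 genes were called (552 had an unadjusted p below 0.05), and 0 of 10 members. The largest difference in log2 fold change was that of Ifit2, at 5.81 (SE 1.26, unadjusted p = 0.000106, limma adjusted p = 0.909), followed by Mx2 at 4.23 (SE 1.55, limma adjusted p = 0.909). Ifit2 was called in the fit of all 38 libraries (limma adjusted p = 0.0412), where 11 of 10596 genes were called. It was not called by voom-limma (adjusted p = 0.134), where 51 of 13260 genes were called. For endothelial cells against osteoprogenitors 0% of 10756 genes were called (516 had an unadjusted p below 0.05), with Mx2 at 4.22 (SE 1.39) and Ifit2 at 3.16 (SE 1.26), both at a limma adjusted p of 0.998. For stromal progenitors against osteoprogenitors 0% of 10735 genes were called (437 had an unadjusted p below 0.05), and 0 of 7 tested members. A difference between cell types in the change of these genes was therefore not shown by the fits of the libraries compared.

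The genes that conjugate ISG15 to proteins or remove it were given from a list of 5, all analysed here. In endothelial cells 0 of 5 were called, with 4 positive differences and a median log2 fold change of 1.49. Usp18, the protease that removes ISG15 and damps receptor signalling, was 134.9 ± 90.5 RPKM in myeloma-bearing and 49.0 ± 53.3 RPKM in healthy mice (SD, n = 5 each). Herc6, the mouse ligase, was 32.1 ± 20.3 against 12.0 ± 18.9 RPKM, and Uba7, the activating enzyme, was 36.5 ± 8.82 against 16.4 ± 13.1 RPKM. Ube2l6, the conjugating enzyme, was 142 ± 85.5 against 162 ± 105 RPKM, although its log2 fold change was 0.89 (SE 1.16) because 1 healthy library was at 0. Trim25, a ligase in RNA sensing, was 10.5 ± 6.35 against 46.6 ± 72.2 RPKM. Its healthy mean rests mainly on 1 library at 175 RPKM, and its medians were 11.6 against 14.2 RPKM. In endothelial cells all 5 had a higher mean level than Isg15 itself, which averaged 4.85 ± 4.95 RPKM in myeloma-bearing mice. In stromal progenitors Usp18 was 76.7, 31.6, 43.7, 0 and 18.8 RPKM in myeloma-bearing libraries D, E, G, I and J and at most 8.94 RPKM in healthy ones, with 0 of 4 tested genes called. In osteoprogenitors 0 of 3 and in myeloma cells 0 of 4 tested genes of the list were called.

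Of 15 receptor and signalling genes, all analysed here, 0 of 14 tested were called in endothelial cells, 0 of 14 in stromal progenitors, 0 of 13 in osteoprogenitors and 0 of 13 in myeloma cells by limma on the libraries compared. The receptor chain Ifnar1 was 5.30 ± 4.83 RPKM in endothelial cells of myeloma-bearing and 15.6 ± 16.7 RPKM in those of healthy mice, and Ifnar2 was 67.3 ± 31.1 against 90.7 ± 37.7 RPKM (SD, n = 5 each). Stat2 was 24.9 ± 11.01 against 16.6 ± 15.3 RPKM and Irf9 was 50.4 ± 40.8 against 29.0 ± 20.0 RPKM. Irf7, which amplifies interferon production and is itself induced by ISGF3, was 0 to 64.0 RPKM in healthy and 42.5 to 292 RPKM in myeloma-bearing endothelial cells, and it was called in both fits of all 38 libraries (log2 fold change 3.72, limma adjusted p = 0.0582, and 5.80, voom-limma adjusted p = 0.0792). None of 21 interferon ligand genes of the list could be analysed here.

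Of 16 further genes of the IFIT and OAS families and their partners, 7 were analysed and 5 passed the filter in endothelial cells, with 0 called by limma on the libraries compared. Oas1b was 0, 0, 0, 4.51 and 0.157 RPKM in healthy and 21.98, 30.5, 0, 7.99 and 6.55 RPKM in myeloma-bearing endothelial cells, and was called in the fit of all 38 libraries (log2 fold change 2.58, limma adjusted p = 0.0557) but not by voom-limma (adjusted p = 0.204). It was above 1 RPKM in 4 myeloma-bearing libraries and 1 healthy one, so it too passed the filter through the group where it was high. Oas1c, of the same enzyme family, was 3.20 ± 7.17 against 7.94 ± 8.94 RPKM (SD, n = 5 each), with 4 myeloma-bearing libraries at 0. Oas1a was 17.1 ± 16.3 against 9.43 ± 17.3 RPKM, and Oas1g was 8.09 ± 12.3 RPKM with no read in healthy mice. Cmpk2, the neighbour of Rsad2, was 60.5 ± 39.2 against 46.2 ± 86.3 RPKM. Its healthy mean rests mainly on 1 library at 200 RPKM, and its medians were 62.4 against 3.77 RPKM. The near-identical copy of Ifit3, listed as I830012O16Rik, was 14.4 ± 16.9 against 27.6 ± 56.7 RPKM on average, but the healthy mean rests on 1 library at 129 RPKM. The medians were 9.52 against 0.722 RPKM and the log2 fold change was 1.08 (SE 1.38, limma adjusted p = 0.985), of the same sign as that of Ifit3.

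Ly6a encodes Sca1, the surface protein used to sort stromal progenitors from osteoprogenitors, and is itself known as an interferon-induced gene. It was 4439 ± 1331 RPKM in endothelial cells of myeloma-bearing and 4445 ± 2553 RPKM in those of healthy mice (log2 fold change 0.12, SE 0.31, limma adjusted p = 0.986). In stromal progenitors it was 1432 ± 839 against 1365 ± 528 RPKM and in osteoprogenitors 22.9 ± 13.6 (n = 4) against 40.5 ± 47.2 RPKM (n = 4). Alcam, the other sorting marker, was 10.2 ± 6.79 against 4.89 ± 3.26 RPKM in osteoprogenitors and at most 0.303 RPKM on average in any other group. Levels of both genes between the progenitor groups were set by the gate and are not a result.

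The 10 genes whose pattern was most like that of the members were found among 12673 other genes by Pearson r with the mean standardised level of the members over the 38 libraries. They were Gm4951 (r = 0.891), Ifi44 (0.875), Pydc4 (0.823), Ubd (0.794), Card10 (0.787), Irf7 (0.783), Cxcl9 (0.778), Enox2 (0.777), Tgtp1 (0.775) and Zcchc2 (0.774). The members themselves had r from 0.686 (Oas2) to 0.832 (Ifit3), each being part of the mean. The 38 points share cell types and libraries, so these values describe likeness and carry no p. Gm4951 averaged 71.2 RPKM in endothelial cells of myeloma-bearing mice and 4.17 RPKM in healthy ones, and Ifi44 averaged 150 against 23.3 RPKM. Ubd, a ubiquitin-like gene, had the highest level at 954 against 292 RPKM and was at most 3.02 RPKM on average in any other group, whereas Cxcl9, a chemokine, also reached 50.7 RPKM in stromal progenitors of myeloma-bearing mice against 1.62 RPKM in healthy ones.

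**Figure D4:**
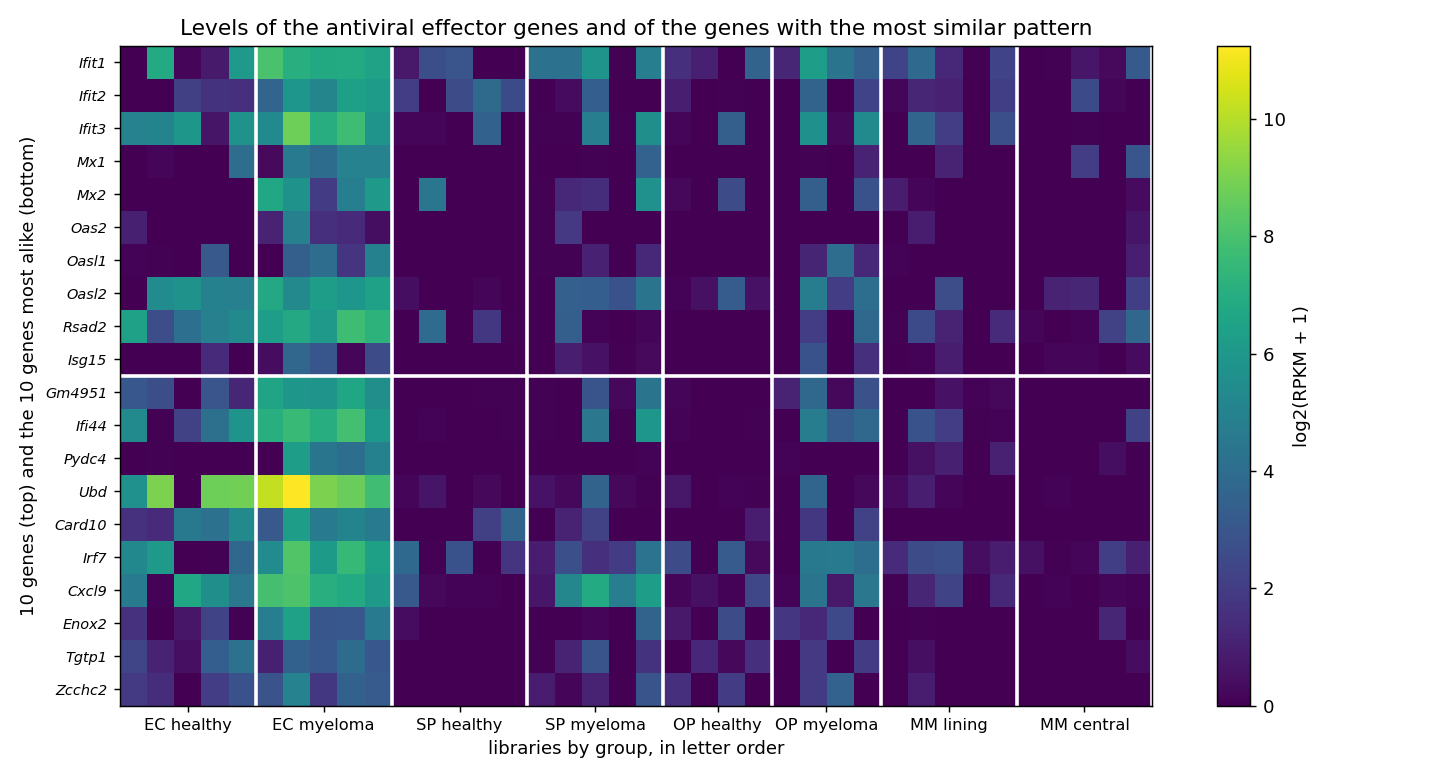
Level as log2(RPKM + 1), from dark (0) to bright, of the 10 antiviral genes (upper rows) and the 10 genes most alike (lower rows) in the 38 libraries, grouped by cell type and condition (EC, endothelial cells; SP, stromal progenitors; OP, osteoprogenitors; MM, myeloma cells). The 5 endothelial libraries of myeloma-bearing mice are the brightest block, and in the progenitors of myeloma-bearing mice the bright cells fall in some libraries and not in others.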

How the data were processed

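RNA-Seq values of 38 libraries were used. The authors aligned the single-end reads to GRCm38 with STAR 2.4.0, counted them on genes with featureCounts (Subread 1.4.5-p1), discarded genes unless 4 or more samples exceeded 1 CPM, and deposited RPKM calculated with edgeR. Versions are from the submitters' processing notes. Counting used default settings, which ignore strand and leave out multimapped reads, so near-identical copies lose reads. Amplification by SmartSeq2 from 100 cells, without molecular identifiers, can lose or multiply single transcripts, so intervals and floors cover counting error only.

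Whole reads were recovered from the steps of each gene (all 13260 genes, tolerance 0.01 reads). Groups were taken from the deposited labels. Two-group comparisons and interactions were fitted with limma 3.58.1 in R 4.3.3 (eBayes with trend) on log2(RPKM + 1), only with the libraries compared, restricted to genes that exceeded 1 RPKM in 4 or more libraries. Benjamini-Hochberg adjustment was over all genes tested. Single genes and neighbouring groups were tested by exact permutation in Python 3.11.15. A floor was 3 reads over a group. The scripts were tested on simulated data.

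The members and lists were chosen with earlier results of these data known. Named genes were all members, the ISG15 conjugation genes, the receptor chains, Stat2 and Irf9 (another gene under this rule is not reported here), listed genes called, the 10 genes most alike, Ly6a and Alcam. Alternatives covered the pseudocount, filter, trend, scaling, libraries in the fit, voom-limma on recovered reads, a replicate block and leaving out each library. Leaving libraries out of the fits of all 38 was added after the data were seen, and so were the named Irf7, Oas1a, Oas1b, Oas1c, Oas1g, Cmpk2 and I830012O16Rik values.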

Additional observations from a re-analysis of the deposited data

Results flagged for a closer look

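Within a group of 4 or 5 libraries, 24 of 72 sets of values had 1 library far from the others by Dixon's ratio, which flags about 1 in 20 sets of normal values by chance. All values are on the log2(RPKM + 1) scale, and many of these sets are mostly at or near 0. That rate does not hold for such sets, so the count is a description and not an excess over chance.

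In endothelial cells of healthy mice, single libraries stood high for Mx1 (4.01, library O), Oasl1 (3.12, N), Isg15 (1.39, N) and Oas2 (1.00, C). Others stood low for Ifit3 (0.62, N) and Oasl2 (0.026, C). In those of myeloma-bearing mice Oas2 was high in 1 library (4.88, E) and Mx1 low in 1 (0.28, D).

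In stromal progenitors of healthy mice Ifit3 (3.49, N) and Mx2 (4.41, L) were each high in 1 library. In myeloma-bearing mice Ifit2 (3.37, G), Mx1 (3.55, J), Mx2 (5.71, J), Oas2 (1.85, E) and Rsad2 (3.39, E) were high in 1 library and Ifit1 was low in 1 (0.085, I).

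In osteoprogenitors Ifit3 (3.39), Mx2 (2.62) and Oasl2 (3.28) were high in healthy library N, and Mx1 (1.07) in myeloma-bearing library J. In myeloma cells Mx1 (1.12) and Oasl2 (2.66) were high in bone-lining library G, Ifit1 (3.20) in central library J and Ifit2 (2.51) in central library G.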

How the results depend on the processing

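The calls of members in endothelial cells of myeloma-bearing against healthy mice depended on the fit. Voom on all 38 libraries differed also in scale and filter, with 13260 genes tested in place of 7880. The number called was 0 in the libraries compared, 7 with all 38 libraries in 1 fit, 1 (Mx2) by voom on recovered reads of the libraries compared and 5 by voom on all 38 libraries. With each endothelial library left out in turn these numbers ran from 0 to 0, from 4 to 7 and from 2 to 7 in the fit of the libraries compared, the fit of all 38 and the voom fit of all 38. In the fit of all 38 the number was 4 without myeloma-bearing library E or healthy L or M, 5 without G or J, 6 without healthy N or O and 7 otherwise. In the voom fit it was 2 without healthy C, 3 without healthy M or myeloma-bearing J, 4 without healthy L, 6 without myeloma-bearing G or I, 7 without myeloma-bearing D and 5 otherwise. Over all genes the same fits called 164 to 459 (258 with no library left out) and, by voom, up to 410, without healthy C (251 with no library left out, and more in each of these fits). All member differences kept their sign under every alternative run in this comparison, and TPM scaling moved the median over all genes from 0.07 to 0.22. Healthy endothelial cells against osteoprogenitors gave 2 called members (1361 of 8258 genes over all) and 3 with all 38 libraries in 1 fit (2232 genes over all). It was 1 without the filter (1298 over all), with TPM scaling (1350) or by voom on the libraries compared (1223). With a library left out it was 1 to 2 (567 to 1372 over all), being 1 without endothelial library L, M or O or osteoprogenitor library L, M or O. The bone-lining myeloma cells gave 1 called member against osteoprogenitors (3996 of 9316 genes over all). It was 0 with a pseudocount of 0.1 (3881 over all), without the filter (4370) or with TPM scaling (4324). With a library left out it was 0 to 2 (3025 to 3662 over all), being 2 without osteoprogenitor D, 1 without bone-lining E and 0 otherwise. Against stromal progenitors 1 member was called (4007 of 9460 genes over all), and 1 to 2 with a library left out (2 without stromal library I, and 3334 to 3881 over all). In myeloma cells Rsad2 changed sign from -0.25 to 0.37 without central library J, within a range of -0.63 to 0.37 over libraries left out. The interaction of endothelial cells and stromal progenitors gave 1 called member (Ifit2) with all 38 libraries, beside 11 of 10596 genes. The cause of these shifts was not tested.

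Same-letter libraries deviated together only weakly (r from -0.0488 to 0.145). Many libraries, though not all, correlated best with their own letter, as did D, G, I and J for endothelial cells against osteoprogenitors of myeloma-bearing mice. The letters were not taken as pairs, so the main fits between cell types treat same-letter libraries as independent, which they may not be. With the replicate block, 2 members were called in stromal progenitors against bone-lining myeloma cells (4023 of 9460 genes over all). In healthy endothelial cells against stromal progenitors 2 were called with the block against 3 without it (1414 against 1465 of 8457 genes over all), and leaving a library out gave 2 to 3.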
